A study of Mus musculus with 6 samples.

Results

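Messenger RNAs of the insulin-responsive glucose transporter GLUT4 and of the proteins that move it to the cell surface were measured in the extensor digitorum longus muscle (EDL) of the hindlimb, which is mostly fast-twitch. The 10 genes were chosen by function, by their symbols in the count table, with the genotype results of these mice known, and they are 10 of 24411 genes in the table. They are the glucose transporters Slc2a4 (GLUT4), Slc2a1 (GLUT1) and Slc2a3 (GLUT3), the Rab GTPase-activating proteins Tbc1d1 and Tbc1d4 (also called AS160), the small GTPases Rab8a, Rab10, Rab13 and Rac1, and Lnpep, which encodes the insulin-regulated aminopeptidase IRAP. All 10 passed the filter on low counts and were tested.

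The mAktDKO mice carried floxed Akt1 and Akt2 alleles together with an Mlc1f-Cre knock-in, and the control mice carried the same floxed alleles without the Cre. All were C57BL/6J and 50 weeks old, males by the study's general statement on the mice it used, with 3 libraries per genotype. Cre driven by this myosin light chain gene acts in the muscle fibres, fast ones above all, so that the other cells of the muscle, muscle stem cells largely included, keep both kinases. The 3 mAktDKO libraries are numbered 1, 2 and 3 in the table and the 3 control libraries 2, 3 and 4, and each library was taken as 1 mouse.

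In resting muscle fibres most GLUT4 sits in storage vesicles inside the cell. Insulin activates Akt, which phosphorylates TBC1D4 and TBC1D1 and so restrains their GAP activity; their target Rab proteins then stay loaded with GTP and the vesicles reach the surface membrane. TBC1D1 also receives signals from contraction through AMPK, and it is the more abundant of the pair in fast glycolytic muscles, whereas TBC1D4 is prominent in more oxidative ones. Rac1 acts on a second branch by remodelling the actin under the membrane, and IRAP travels in the same vesicles as GLUT4. Only mRNA was measured here, so phosphorylation and the position of the transporter are outside these data.

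Levels are given in CPM, the counts of a gene relative to the total of its library, scaled between libraries by edgeR's TMM factors. Library totals ran from 13738795 to 15445523 reads assigned to genes, and 3 counts were worth 0.180 to 0.227 CPM. The fast fibre genes were present at high level in every mouse, for example Myh4 (myosin heavy chain 2B) at 46990 to 55530 CPM, which fits the labelled muscle. Akt2, one of the targeted genes, was at 49.1 to 52.7 CPM in mAktDKO and 133 to 172 CPM in control mice (log2 fold change −1.55, edgeR adjusted p = 0.000923). Akt1, the other, was at 51.3 to 58.8 against 65.5 to 66.5 CPM (−0.25, edgeR adjusted p = 0.115). Counts per gene take in exons outside a floxed part and the RNA of cells without Cre, and the part of either in these values was not tested. The threshold was an adjusted p of 0.01, over 12892 tested genes. Control mouse 2 stood apart from the other libraries over all genes: the chi-square per degree of freedom between 2 libraries was 51.4 to 69.8 between it and the mAktDKO mice and 26.9 and 27.7 between it and the other control mice, against 10.8 between control mice 3 and 4. Values without it are therefore given for each member.

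Tbc1d1 was the member with the largest difference, and its mRNA was at about 0.47 times the control level in mAktDKO muscle, while Tbc1d4, its close relative, had a higher mean in mAktDKO than in control muscle. Slc2a4 itself, Slc2a1, Slc2a3, Rab10, Rab13 and Rac1 overlapped between the genotypes. None of the 10 members passed the adjusted p of 0.01 in edgeR, a threshold that 0.0233% of all tested genes passed. At an adjusted p of 0.05, which 1.18% of all genes passed, 1 of 10 members was called, and it was Tbc1d1. By DESeq2's Wald test, 1 of 10 members, again Tbc1d1, had an adjusted p below 0.01, against 3.46% of the genes with an adjusted p there; 2 members, Slc2a3 and Rab13, received none.

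**Figure D1:**
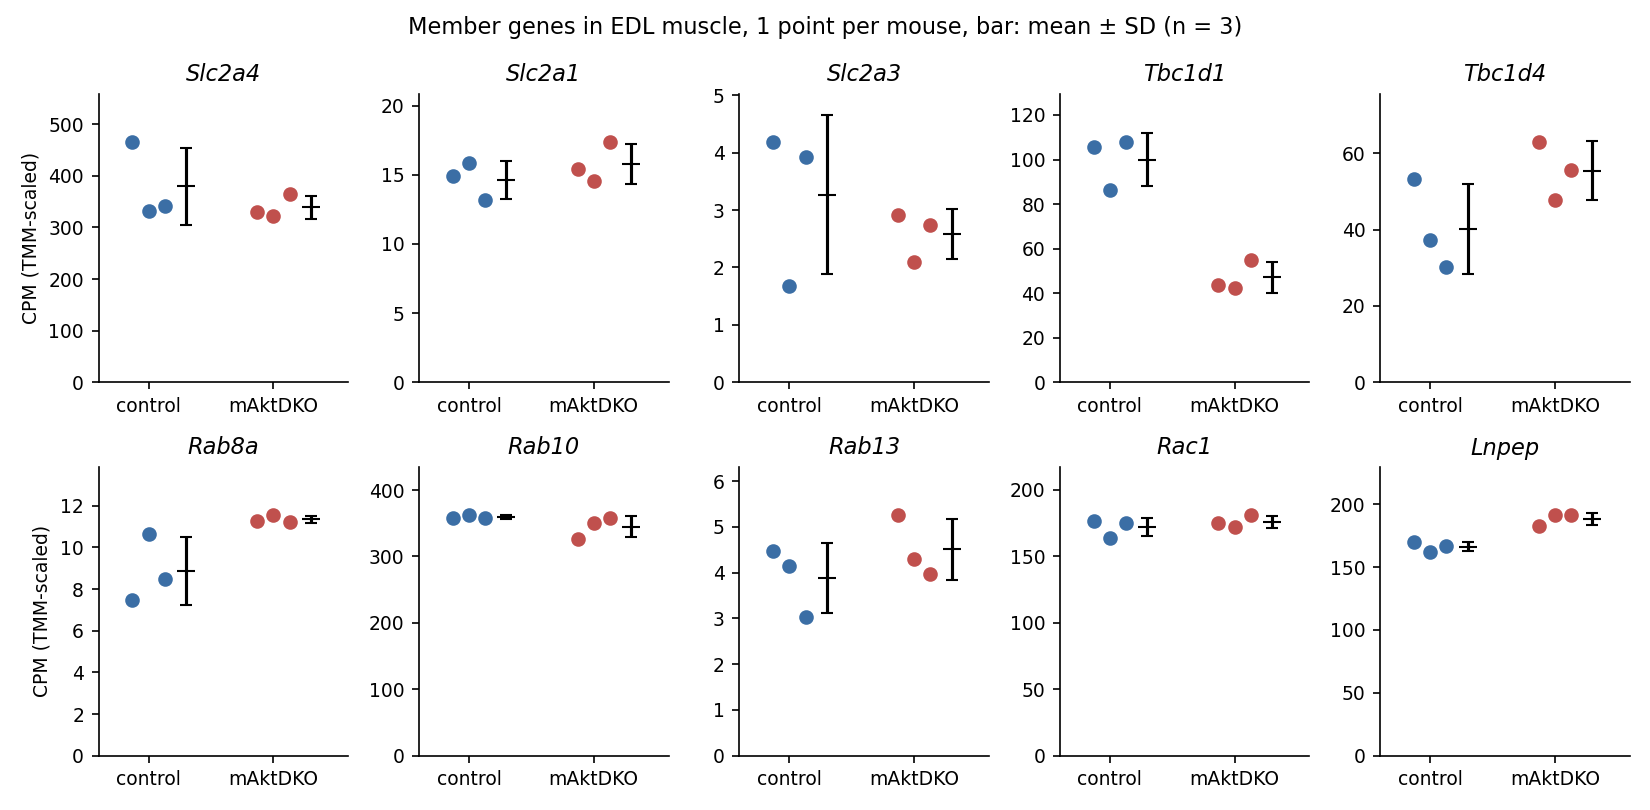
TMM-scaled CPM (y axis, from 0) of each member gene in the 3 control (blue) and 3 mAktDKO (red) mice, 1 point per mouse, with the mean ± SD beside them. The groups are separate for Tbc1d1 (42.4 to 54.9 against 86.4 to 108 CPM), Rab8a and Lnpep, and overlap for the other genes.

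For the Rab GTPase-activating proteins, the stretches of DNA ahead of their annotated starts are shown first, because these genes held the largest differences among the members. Each is the 250 bases before a RefSeq start on GRCm38.p6, the same assembly as mm10, written 5′ to 3′ on the strand of the gene. Tbc1d1 spans chr5:64156305-64351486 on the plus strand. RefSeq places 2 starts in it, and the window shown belongs to the downstream one, at chr5:64230107-64230356. The window of the other start lies wholly in annotated exon sequence of the gene and is not shown. Tbc1d4 spans chr14:101442360-101609191 on the minus strand, and its window is chr14:101609192-101609441. Neither printed window overlaps an annotated exon of its gene. Capitals mark GC boxes (GGGCGG on either strand).
Tbc1d1: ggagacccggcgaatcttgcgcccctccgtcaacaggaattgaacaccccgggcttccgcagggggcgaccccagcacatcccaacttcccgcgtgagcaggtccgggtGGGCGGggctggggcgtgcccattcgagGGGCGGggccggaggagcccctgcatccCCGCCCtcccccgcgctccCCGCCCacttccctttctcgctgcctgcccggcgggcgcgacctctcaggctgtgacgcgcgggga
Tbc1d4: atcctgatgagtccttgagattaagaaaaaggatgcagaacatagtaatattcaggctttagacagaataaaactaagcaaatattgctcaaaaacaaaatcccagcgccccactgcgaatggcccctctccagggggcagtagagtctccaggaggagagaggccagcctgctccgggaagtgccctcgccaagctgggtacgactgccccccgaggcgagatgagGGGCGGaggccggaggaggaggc

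The Tbc1d1 window held 4 GC boxes and was 73.6% G and C, and the Tbc1d4 window held 1 GC box and was 54.8% G and C. The window of the other Tbc1d1 start, chr5:64160010-64160259, held 0 GC boxes and 1 E-box and was 68.4% G and C. A GC box was present in 32.7% of the 32841 windows of the same length ahead of all annotated starts, whose median G and C content was 52.4%. Neither printed window held an E-box (CANNTG, which reads the same on both strands), a motif of myogenic factors found in 66.2% of all windows, nor the FoxO element GTAAACA on either strand, found in 3.17%. The TATA box TATAAA, found in 12.4%, was absent from both as well. Of the 10 members, 7 had at least 1 window in the RefSeq table, 9 windows in all, and none of these held the FoxO element. Such matches are letters in a window, and no binding was measured.

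Tbc1d1 counts were 43.8, 42.4 and 54.9 CPM in mAktDKO mice 1, 2 and 3 and 106, 86.4 and 108 CPM in control mice 2, 3 and 4. The highest mAktDKO mouse was thus below the lowest control mouse, and the gap between the groups was wider than the range within either. The mean was 47.0 ± 6.86 CPM in mAktDKO mice (SD, n = 3), the SD among the control mice was 11.9 CPM (n = 3), and the log2 fold change was −1.09 (SE 0.13, 95% interval −1.37 to −0.80, edgeR adjusted p = 0.0180). By p, Tbc1d1 was in position 6 of the 12892 tested genes. Since the genotype results were known when the members were chosen, this p describes the gene and is no separate evidence for it. The adjusted p was 4.99e-12 in DESeq2, 0.00325 in edgeR without the filter on low counts, and between 0.0126 and 0.105 when each mouse was left out in turn; it was above 0.05 without mAktDKO mouse 1 (0.0966) and without mAktDKO mouse 2 (0.105). The direction was the same in every one of these fits.

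Markers of fibre types and of other cells were read beside this difference. All 9 fast fibre markers had log2 fold changes below 0, and their summed level was 105880 to 119017 CPM in mAktDKO and 122073 to 131544 CPM in control mice, although none passed an adjusted p of 0.05. Myh4, the highest of them, overlapped between the groups (−0.02), as did Actn3, Mylpf and Tnnt3. The other 5 did not overlap: Tnni2 (−0.59, edgeR adjusted p = 0.0557), Myh1 (−0.51, 0.0539), Tnnc2 (−0.48, 0.0608), Pvalb (−0.41, 0.0966) and Atp2a1 (−0.22, 0.256). The 7 slow fibre markers summed to 679 to 1316 and 607 to 884 CPM, with 6 of them above 0. Of the marker lists for other cells, the 4 tenocyte genes (848 to 1266 against 617 to 788 CPM in sum) and the 3 satellite cell genes (6.46 to 8.02 against 5.74 to 6.27 CPM) had sums that did not overlap, higher in mAktDKO mice. Of the satellite cell genes, Pax7 (log2 fold change 0.08, edgeR adjusted p = 0.828) and Calcr (0.22, 0.708) overlapped between the groups. Only Myf5 (0.59, 0.179) did not. Sums overlapped for the fibro-adipogenic genes (15288 to 19740 against 6379 to 15589 CPM), the Schwann cell genes (281 to 390 against 274 to 305 CPM) and the erythroid genes (150 to 320 against 114 to 168 CPM), but all 5 genes of each of these lists, and all 7 macrophage genes, had log2 fold changes above 0. Control mouse 2 held the low end of the fibro-adipogenic control range, at 6379 CPM, with 12968 and 15589 CPM in control mice 3 and 4. Col1a1, a collagen, made up most of this sum (14389 to 18871 against 5895 to 14925 CPM), and its lowest value was in control mouse 2 too. Its groups overlapped, as did those of Ly6a (32.3 to 36.0 against 26.9 to 35.2 CPM, edgeR adjusted p = 0.493) and Lum (55.8 to 105 against 22.2 to 81.3 CPM, 0.384). Dcn (587 to 698 against 372 to 477 CPM, edgeR adjusted p = 0.0539) and Pdgfra (79.2 to 87.8 against 62.7 to 75.6 CPM, 0.148) did not overlap between the groups, beside 31.2% of all tested genes. Of all these markers 1 passed an adjusted p of 0.05, the globin gene Hbb-bs (edgeR adjusted p = 0.0180), which was listed at 0 in each control mouse and has near-identical copies among which reads could be split, so that its value is uncertain. The part of any of these in the Tbc1d1 difference was not tested. In whole muscle, fewer cells of a type and less RNA per cell cannot be told apart.

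Tbc1d4 was at 63.1, 47.8 and 55.6 CPM in mAktDKO and at 53.2, 37.2 and 30.3 CPM in control mice. The mAktDKO mice were higher on average (55.5 ± 7.67 against 40.2 ± 11.7 CPM, SD, n = 3), but the lowest of them was below control mouse 2. The log2 fold change was 0.46 (SE 0.19, 95% interval 0.03 to 0.89), with an unadjusted p of 0.0374 and an edgeR adjusted p of 0.178, and the gene was not called. The value moved with single control mice, since the log2 fold change was 0.72 without control mouse 2 (edgeR adjusted p = 0.0443) and 0.29 without control mouse 4 (0.304).

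Because the coding and untranslated exons of Tbc1d1 and Tbc1d4 are of nearly equal merged length (6968 and 6833 bases), their levels can be set side by side per length, in CPM per kilobase of exon. In control mice Tbc1d1 was the more abundant of the pair in each mouse, at 15.2, 12.4 and 15.5 against 7.78, 5.44 and 4.43 for Tbc1d4. In mAktDKO mice the order was the opposite in each mouse, with Tbc1d1 at 6.28, 6.08 and 7.88 and Tbc1d4 at 9.23, 6.99 and 8.14. The ratio of Tbc1d4 to Tbc1d1 was 1.47, 1.15 and 1.03 in mAktDKO mice and 0.514, 0.439 and 0.286 in control mice. Tbc1d1 therefore made up 40.5 to 49.2% of the summed level of the pair in mAktDKO muscle and 66.1 to 77.8% in control muscle. The mean ratio was 1.22 ± 0.226 (SD, n = 3) against 0.413 ± 0.116 (SD, n = 3), a 3.00-fold difference on the log scale that does not depend on the lengths or on the scaling between libraries. The summed level of the pair was 13.1 to 16.0 in mAktDKO and 17.8 to 22.9 in control mice. These are the values of the comparison on which the members were known, given as a description with no test.

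**Figure D2:**
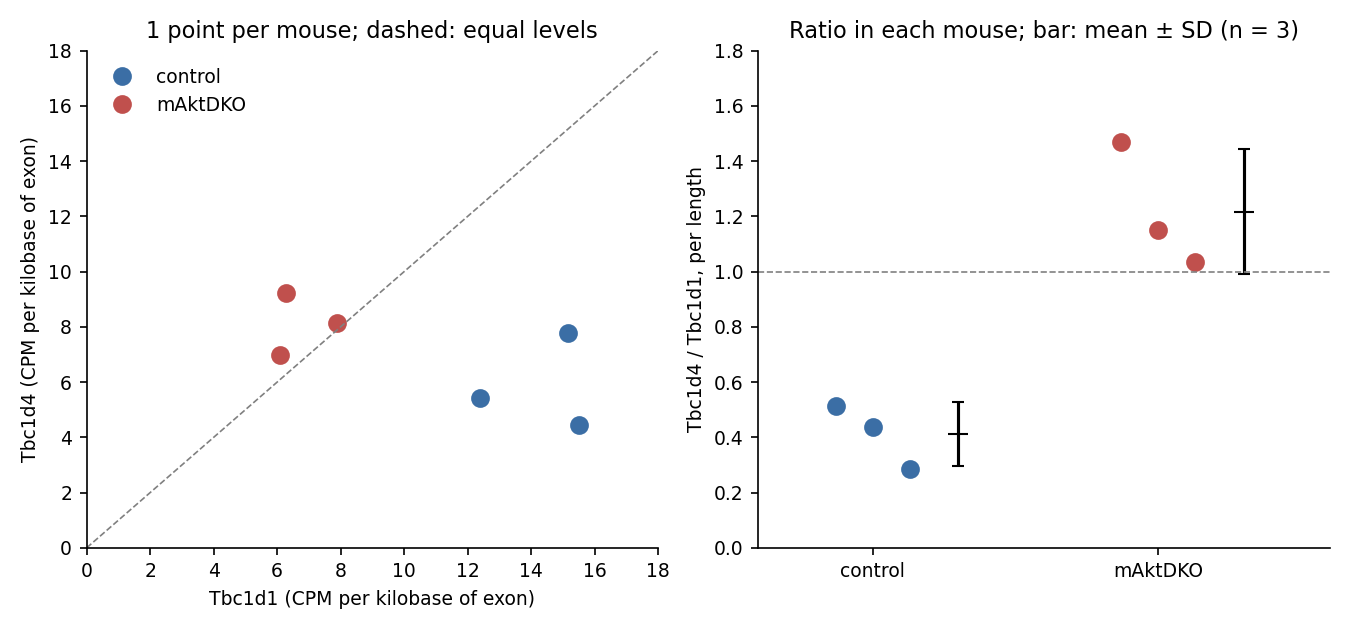
Left, Tbc1d4 against Tbc1d1 in CPM per kilobase of exon, 1 point per mouse, with the dashed line of equal levels; right, the ratio of Tbc1d4 to Tbc1d1 in each mouse with the mean ± SD. The 3 control mice (blue) lie below the line, with ratios from 0.286 to 0.514, and the 3 mAktDKO mice (red) above it, with ratios from 1.03 to 1.47.

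Among the transporters, Slc2a4 was at 330, 323 and 365 CPM in mAktDKO mice and at 466, 331 and 341 CPM in control mice. Control mouse 2 stood above the other 5 mice, and the other 2 control mice lay within the range of the mAktDKO mice. The log2 fold change was −0.16 (SE 0.13, 95% interval −0.47 to 0.14, edgeR adjusted p = 0.475), so that the interval reached from 0.724 to 1.10 times the control level. Without control mouse 2 it was 0.01, a change of sign. The gene, at chr11:69942539-69948188 on the minus strand, encodes the transporter that is inserted into the membrane on insulin and contraction.

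Slc2a1, at chr4:119108711-119137983 on the plus strand, encodes the basal transporter of many cell types, including endothelial cells and perineurial cells. It was at 15.4, 14.5 and 17.4 CPM in mAktDKO and 14.9, 15.9 and 13.1 CPM in control mice, with overlapping groups (log2 fold change 0.11, 95% interval −0.16 to 0.37, edgeR adjusted p = 0.591). Slc2a3, at chr6:122727809-122801640 on the minus strand, is the high-affinity transporter best known from neurons and leukocytes. It was the lowest member, at 2.91, 2.09 and 2.74 CPM in mAktDKO and 4.19, 1.68 and 3.93 CPM in control mice, or 23 to 60 counts. The 95% interval of its log2 fold change ran from −1.09 to 0.41 (estimate −0.34, edgeR adjusted p = 0.544), wide on both sides of 0, and the estimate was −0.12 without control mouse 2 and −0.66 without control mouse 3. Beside these, endothelial markers summed to 497 to 599 and 425 to 553 CPM and macrophage markers to 121 to 154 and 82.8 to 131 CPM in mAktDKO and control mice. The 4 neutrophil markers were near 0, at no more than 1.20 CPM in sum, and none was tested.

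Adipocytes also express Slc2a4, and the adipocyte markers were uneven among the mice. All 5 had log2 fold changes above 0, none with an adjusted p below 0.05. Their sum was 134 and 157 CPM in mAktDKO mice 1 and 2 but 51.8 CPM in mAktDKO mouse 3, against 40.6 to 88.2 CPM in control mice. The mouse with the highest Slc2a4 level, control mouse 2, had a sum of 52.0 CPM, and the part of adipocyte RNA in the Slc2a4 level was not tested.

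Per length, Slc2a4 made up most of the transporter mRNA in every mouse. Over the 12 Slc2a genes of the table it held 88.4, 88.2 and 88.8% of the summed CPM per kilobase in mAktDKO mice and 91.2, 89.9 and 89.6% in control mice. The groups did not overlap, although the shares were close, and a share moves with every other gene of the family. Slc2a1 held 3.21 to 3.42% in mAktDKO and 2.35 to 3.49% in control mice. Slc2a12 (GLUT12), another transporter found in muscle, held 2.91 to 3.42% against 2.32 to 2.37%.

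The Rab proteins are the switches that the GTPase-activating proteins act on. Rab10, at chr12:3247428-3309969 on the minus strand, is the main such Rab in fat cells. Its counts were nearly equal in all mice, at 327, 350 and 358 CPM in mAktDKO and 358, 362 and 357 CPM in control mice. The log2 fold change was −0.06 (SE 0.08, 95% interval −0.23 to 0.12, edgeR adjusted p = 0.666). Scaled by library totals it was 0.08, where the median of all genes was itself at 0.16 in place of 0.02. An antisense gene, Rab10os, shares 143 exon bases with Rab10, and it was at 0.419 to 1.40 CPM over the 6 mice.

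Rab8a, at chr8:72161200-72183904 on the plus strand, is the Rab most often tied to GLUT4 traffic in muscle cells. It was at 11.3, 11.6 and 11.2 CPM in mAktDKO and at 7.48, 10.6 and 8.46 CPM in control mice. The groups did not overlap and the mAktDKO mice lay close together, at 11.4 ± 0.171 CPM on average against 8.86 ± 1.62 CPM (SD, n = 3). The log2 fold change of 0.36 (SE 0.14, 95% interval 0.04 to 0.68) had an unadjusted p of 0.0327 and an edgeR adjusted p of 0.169. Rab13, at chr3:90213695-90226385 on the plus strand, takes part in the late steps at the membrane in muscle cells. It was at 5.26, 4.31 and 3.97 CPM in mAktDKO and 4.47, 4.16 and 3.02 CPM in control mice, with overlapping groups (log2 fold change 0.22, 95% interval −0.25 to 0.68, edgeR adjusted p = 0.533).

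With Rab8b, the paralogue of Rab8a, added, Rab10 held 90.0 to 91.2% of the summed level per length of these 4 Rab genes in mAktDKO and 91.8 to 93.4% in control mice. Rab8a held 2.21 to 2.40% and 1.51 to 2.08%, Rab13 2.16 to 3.08% and 1.67 to 2.49%, and Rab8b 4.46 to 5.34% and 2.59 to 3.84%. Rab10 mRNA was thus far above that of the other Rab genes in either genotype.

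Rac1, at chr5:143503634-143528036 on the minus strand, drives the actin branch of the response. It was at 175, 172 and 181 CPM in mAktDKO and 177, 164 and 175 CPM in control mice, and the mean of each group lay within 1 SD of the mean of the other. The log2 fold change was 0.03 (SE 0.07, 95% interval −0.14 to 0.20, edgeR adjusted p = 0.813), which leaves room for levels from 0.910 to 1.15 times control. Its exons share 2309 bases with Daglb on the opposite strand; the libraries were made with a kit that keeps the strand, but whether the counting used it is not given in the sources used here. Daglb was at 13.6 to 14.2 CPM in mAktDKO and 15.8 to 17.3 CPM in control mice, far below Rac1.

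Lnpep, at chr17:17521410-17625050 on the minus strand, encodes the vesicle-resident aminopeptidase that follows GLUT4. It was at 183, 191 and 191 CPM in mAktDKO and 170, 162 and 167 CPM in control mice. The groups did not overlap, and with means of 188 ± 4.89 and 166 ± 3.74 CPM (SD, n = 3) the difference was small but larger than the spread within either. The log2 fold change was 0.18 (SE 0.07, 95% interval 0.02 to 0.34), with an unadjusted p of 0.0349 and an edgeR adjusted p of 0.173.

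Without control mouse 2, the log2 fold changes were −1.05 for Tbc1d1, 0.72 for Tbc1d4, 0.01 for Slc2a4, 0.12 for Slc2a1, −0.12 for Slc2a3, 0.25 for Rab8a, −0.06 for Rab10, 0.33 for Rab13, 0.05 for Rac1 and 0.19 for Lnpep. Of these, Tbc1d1 (edgeR adjusted p = 0.0126) and Tbc1d4 (0.0443) had an adjusted p below 0.05 and none below 0.01. In that fit 8 of 13138 tested genes were below 0.01, beside 3 of 12892 in the fit with all mice. The share of all genes below 0.05 in that fit was not counted, so these 2 members stand without a background.

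In all, 3 of 10 members (Tbc1d1, Rab8a and Lnpep) had groups that did not overlap, against 31.2% of all tested genes, and 4 of 10 (these and Tbc1d4) had an unadjusted p below 0.05, against 24.5% of all tested genes. Of the 10 log2 fold changes 6 were above 0 and 4 below, and their median was 0.07, against 0.02 over all tested genes. The share of members without overlap was thus near that of all genes.

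**Figure D3:**
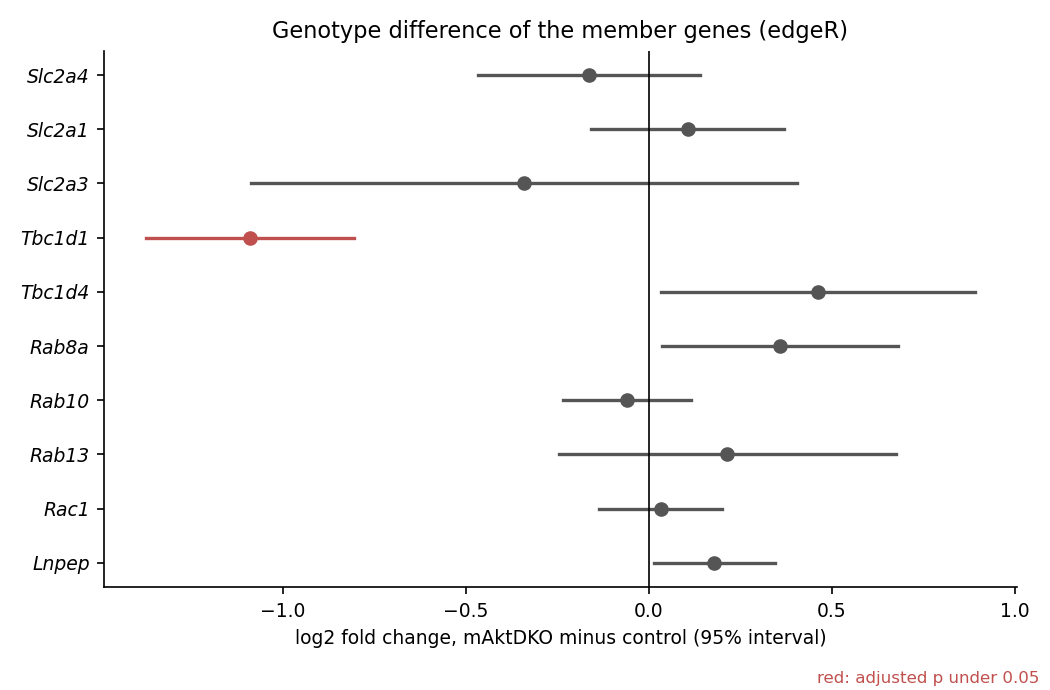
log2 fold change of each member gene, mAktDKO minus control, from edgeR (points) with its 95% interval (lines). Tbc1d1 (red, adjusted p = 0.0180) lies at −1.09; the intervals of Tbc1d4, Rab8a and Lnpep lie above 0 and those of the other 6 genes cross it.

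Ordered by level per length in control mice, Slc2a4 came first at 134 ± 26.6 CPM per kilobase of exon (SD, n = 3), before Rab10 at 102 ± 0.779 and Rac1 at 40.8 ± 1.65. Tbc1d1 (14.4 ± 1.70) and Lnpep (13.8 ± 0.310) followed and overlapped. Next were Tbc1d4 (5.89 ± 1.72) and Slc2a1 (4.18 ± 0.396), which overlapped, then Rab13 (2.35 ± 0.462) and Rab8a (1.95 ± 0.356), which overlapped as well, and last Slc2a3 (0.747 ± 0.316). In mAktDKO mice the order differed in 1 respect, in that Tbc1d1 (6.75 ± 0.984) came after Lnpep (15.6 ± 0.406) and Tbc1d4 (8.12 ± 1.12), in position 6 in place of 4. There Tbc1d1 and Tbc1d4 overlapped, whereas Lnpep was above both in each mouse. Slc2a4 was above Rab10 in both groups without overlap.

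**Figure D4:**
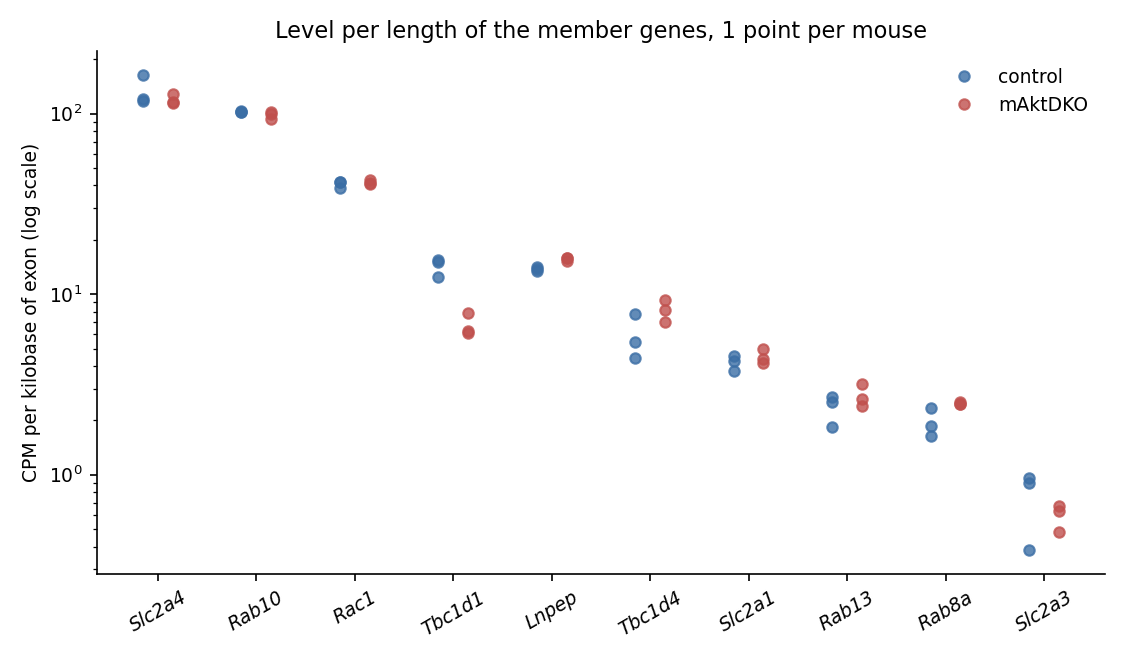
CPM per kilobase of merged exon (y axis, log scale) of the member genes in the order of their control means, 1 point per mouse, control in blue and mAktDKO in red. Slc2a4 lies at 114 to 165, Rab10 at 93.0 to 103 and Slc2a3 below 1, and the colours are apart for Tbc1d1 (12.4 to 15.5 against 6.08 to 7.88).

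The genes whose pattern over the 6 mice was most like that of Slc2a4, by Pearson correlation of log2 CPM among the other 12891 tested genes, were Cdc42bpg (r = 0.997), Six2 (r = 0.996) and Atmin (r = 0.994). In all, 364 genes had a correlation above 0.9, and the pattern they share is one in which control mouse 2 stands apart, so these values are a description of 6 libraries.

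Around the members, 87 further genes of the same traffic were read in 10 lists by role. Of these 83 were tested, 0 passed an adjusted p of 0.01 or of 0.05 in the edgeR fit with TMM factors and the filter on low counts, and 20 had an unadjusted p below 0.05, 12 of them higher and 8 lower in mAktDKO mice, beside 24.5% of all tested genes (1471 higher and 1693 lower). Their median log2 fold change was 0.04. In DESeq2, 2 of them (Sort1 and Hk2) had an adjusted p below 0.01, beside 3.46% of all genes with an adjusted p there, so that neither count stood above the background.

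Hexokinases phosphorylate glucose once it has entered and keep it in the cell, and 3 genes of the kind were read. Hk2, the main insulin-responsive hexokinase of muscle, was at 374, 324 and 438 CPM in mAktDKO and 662, 473 and 520 CPM in control mice. The groups did not overlap, and its log2 fold change of −0.54 had an adjusted p of 0.0838 in edgeR and of 0.00560 in DESeq2. Hk1, which is expressed in many cell types, was at 19.9 to 23.7 and 16.2 to 19.2 CPM (0.28, edgeR adjusted p = 0.176).

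Of the 8 other glucose transporters in the list 5 were tested and none was called. Slc2a13, a proton and myo-inositol transporter, was at 5.69 to 7.98 CPM in mAktDKO and 2.31 to 5.36 CPM in control mice (log2 fold change 0.78, edgeR adjusted p = 0.137), and Slc2a12 at 16.0 to 18.4 and 12.8 to 17.5 CPM (0.27, 0.250). Slc2a2, Slc2a5 and Slc2a6 had at most 5 counts in any mouse and were not tested, and Slc2a7, which the list does not hold, was at 0 in every mouse.

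Among 9 genes for vesicle cargo and retention, none was called by edgeR. Sort1 encodes sortilin, which helps to form the GLUT4 storage vesicles. It was at 144, 153 and 158 CPM in mAktDKO and 113, 116 and 92.4 CPM in control mice, groups that did not overlap, with a log2 fold change of 0.50 (SE 0.10) and an adjusted p of 0.0520 in edgeR and of 0.00142 in DESeq2. Its edgeR adjusted p was 0.0360 without the filter on low counts, 0.0410 with library totals and 0.0456 with at least 10 counts in every mouse. Vamp2, a SNARE of the vesicle, was at 29.2 to 38.0 and 25.5 to 29.2 CPM (0.30, edgeR adjusted p = 0.154). Of the 14 docking and fusion genes none was called either. Snap23, a SNARE of the surface membrane, was at 37.6 to 41.7 and 27.0 to 35.9 CPM (0.35, 0.113), and Exoc7, an exocyst subunit, at 32.0 to 37.6 and 39.5 to 43.8 CPM (−0.28, 0.131).

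The other small GTPases were 13, all tested and none called, 9 with values above 0. Rab8b was at 22.3, 28.0 and 23.6 CPM in mAktDKO and 13.3, 20.4 and 19.3 CPM in control mice (log2 fold change 0.48, edgeR adjusted p = 0.129), and Rab11b, of recycling endosomes, at 82.4 to 91.5 and 72.5 to 76.6 CPM (0.21, 0.151). Without control mouse 2, several estimates of named pathway genes moved by over 1.5 times: Rab8b to 0.31, Slc2a13 to 0.50, Slc2a12 to 0.43, Myo5a to 0.24, Myo1c to −0.04, Ywhaz to 0.13, Ywhag to −0.12 and Mef2d to −0.15. Leaving out other mice moved Vamp2 to 0.19 and Cfl2 to 0.10 (both without mAktDKO mouse 3) and Pak1 to 0.15 (without mAktDKO mouse 1) by as much, and Myo1c, near 0, moved with 5 of the 6 mice. None of these genes was called in any of these fits. Of 12 regulators of these GTPases none was called. Ralgapa2, a subunit of the complex that turns off the Ral proteins, was at 18.1 to 22.2 and 24.2 to 24.9 CPM (−0.28, 0.143), and Arhgdia, which holds Rac1 and its relatives inactive in the cytosol, at 71.8 to 76.8 and 63.0 to 66.6 CPM (0.19, 0.158).

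Rac1 relatives and effectors numbered 7, of which 6 were tested; all 6 were above 0 and none was called. Pak1, a kinase that Rac1 activates, was at 29.9 to 37.6 and 28.0 to 31.1 CPM (log2 fold change 0.22, edgeR adjusted p = 0.228), and Cfl2, the muscle cofilin, at 422 to 496 and 391 to 428 CPM (0.17, 0.275). Of the 3 myosin motors none was called, with Myo5a at 23.6 to 29.7 and 14.2 to 22.6 CPM (0.42, 0.178) and Myo1c at 85.0 to 94.1 and 78.2 to 92.0 CPM (0.03, 0.845). The 14-3-3 proteins bind TBC1D1 and TBC1D4 once these are phosphorylated. All 7 of their genes were tested and none was called; Ywhaz was at 140 to 146 and 106 to 132 CPM (0.22, 0.195) and Ywhag at 286 to 315 and 313 to 368 CPM (−0.18, 0.247). Of 11 genes for GLUT4 transcription and transporter turnover none was called, 7 with values below 0. Mef2d, a transcription factor of the Slc2a4 promoter, was at 58.1 to 69.5 and 69.7 to 86.0 CPM (−0.26, 0.183), and Thra, a thyroid hormone receptor, at 53.6 to 55.7 and 60.7 to 67.4 CPM (−0.22, 0.130).

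**Figure D5:**
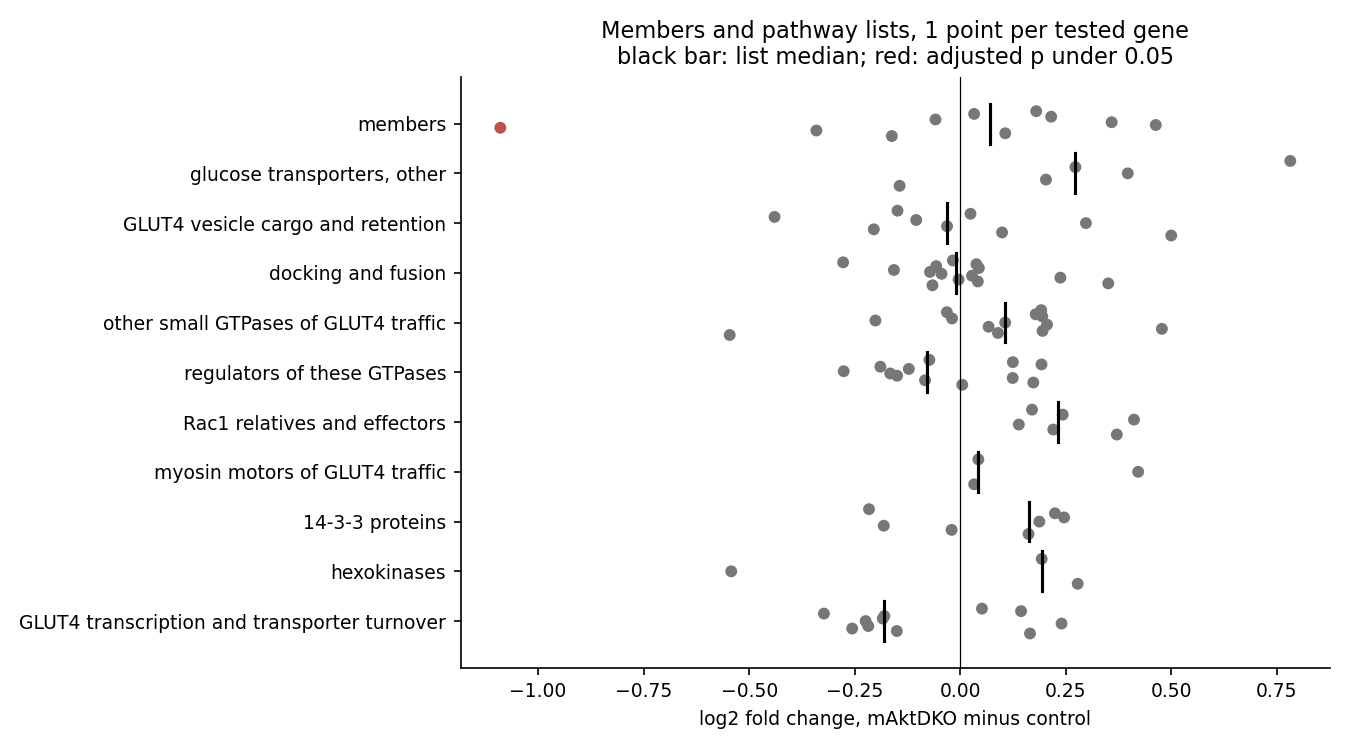
log2 fold change, mAktDKO minus control (x axis), of the members and of each tested gene in the 10 pathway lists, 1 point per gene, with the list median as a black bar. Tbc1d1 at −1.09 (red, adjusted p under 0.05) stands apart, while the list medians lie between −0.18 and 0.27.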

How the data were processed

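Total RNA of EDL muscle was depleted of ribosomal RNA, made into strand-specific libraries and sequenced with paired ends. Per the submitters' processing notes, the authors mapped reads to mm10 with STAR 2.6.1b and estimated counts per gene with RSEM 1.3.1; the study's methods name another STAR release, and the annotation used is not given in the sources used here. The deposited values are expected (estimated) counts, which were rounded; 3.36 to 4.09% of genes per library had a value that was not whole, and 8 of 10 members were whole in every mouse. The 10 members and all lists were chosen with earlier results of these data known. The table names control columns 2, 3 and 4 and the labels number the control samples otherwise, so control columns were assigned to their group only. The labels do not say whether a library held 1 animal or pooled tissue, and p-values measure the spread between these libraries.

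Genes passing filterByExpr (minimum count 10) were fitted with edgeR 4.0.16 (R 4.3.3, limma 3.58.1) by quasi-likelihood F tests with TMM factors and Benjamini-Hochberg adjustment over 12892 genes; log2 CPM used a prior count of 2. The threshold was an adjusted p under 0.01, a part of the study's criterion for DESeq2, here applied to edgeR. DESeq2 1.42.0, which the study used, served as an alternative, with other scalings, filters, a threshold of 0.05 and fits leaving out each mouse. SEs were computed from the log2 fold change and the F statistic of its test. Intervals are 95%, use these SEs and cover the fitted error, so an interval that leaves out 0 restates an unadjusted p below 0.05. CPM was divided by the merged length of protein-coding exons in GENCODE M21 (GRCm38) for levels per length; gene positions are from the same annotation. Tested genes named from the pathway lists were the 2 with the smallest p in each list and any with an adjusted p under 0.05. The 3 genes most like Slc2a4 were named as well. Marker genes, the targeted Akt genes, genes that share exon bases with a member and untested transporters were named by their role, whatever their p. 1 result is not reported here. The edgeR and DESeq2 code was tested on simulated counts. Promoter windows are from RefSeq (GRCm38.p6).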

Additional observations from a re-analysis of the deposited data

How the results depend on the processing

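The count of members past the threshold was 0 in edgeR at an adjusted p of 0.01. It was 1, Tbc1d1 each time, in DESeq2, without the filter on low counts, and at an adjusted p of 0.05. It was 0 under the other scalings, with at least 10 counts in every mouse, and in each fit that left out a mouse. Of all genes, 3 of 12892 passed 0.01 in the main fit and under the other scalings. Without the filter it was 32 of 17360, and with at least 10 counts in every mouse 3 of 12125. In DESeq2 3.46% passed, and 1.18% passed 0.05 in edgeR. Without control mice 2, 3 and 4 in turn, 8, 3 and 4 genes passed 0.01. Without mAktDKO mouse 1, 2 or 3, 0 genes passed, so no member or listed pathway gene could be called there. The count of listed pathway genes was 0 in every fit but DESeq2, where it was 2 (Hk2 and Sort1); at an adjusted p of 0.05 it was 0 in edgeR, although Sort1 was below 0.05 (0.0360 to 0.0456) with library totals, without the filter and with at least 10 counts in every mouse. No direction of a member turned in the alternatives that kept all mice except that of Rab10, 0.078 with library totals. Library totals raised the median of all genes from 0.02 to 0.16, and the estimates of members and pathway genes with it. With a mouse left out, Slc2a4 ranged from −0.25 to 0.012, Rac1 from −0.0028 to 0.052 and, among the named pathway genes, Myo1c from −0.036 to 0.078. The Tbc1d4 to Tbc1d1 ratio was added as a result after seeing the data. Without the length, Lnpep came before Tbc1d1 and Rab8a before Rab13 in control mice, and in mAktDKO mice Rab10 came before Slc2a4, Lnpep before Rac1 and Rab8a before Rab13; the lengths of the longest transcripts, also added after seeing the data, left the order of all 10 members in control mice as it was. No paired analysis was possible because the columns number the mAktDKO mice 1 to 3 and the control mice 2 to 4, which does not match the numbers in the labels. Without a change of sign, leaving out a mouse moved Slc2a3 between −0.66 and −0.12, Slc2a1 between 0.017 and 0.17, Rab13 between 0.064 and 0.33 and Rab10 between −0.10 and −0.022, none of them called. The lowest member, Slc2a3, rested on 23 to 60 counts per mouse.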
